A study of Mus musculus with 12 samples.

Results

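The 4 genes of the AMPA receptor subunits, Gria1, Gria2, Gria3 and Gria4, were taken by name from the gene models deposited for an RNA-seq study of the mouse nucleus accumbens (NAc). They are 4 of the 35912 gene names in the file and hold 19 of its 87740 transcripts. The NAc, a ventral part of the striatum that takes part in reward, was dissected from male mice, with 3 pools in each of 4 groups. The sample labels give the strain as C57BL/6 and an age of 8 to 10 weeks, an age entered under a tag meant for cell passages, while the methods name C57BL/6J mice of 8 weeks. The repeated cocaine pools had received 7 intraperitoneal injections of cocaine at 20 mg/kg, and the repeated saline pools 7 injections of saline. The acute cocaine pools had received 6 injections of saline and then 1 of cocaine at 20 mg/kg, and the acute saline pools 7 injections of saline. All were taken 24 h after the last injection. The labels give 3 to 5 animals per pool and the methods 5, so that a pool is a mean over animals and the spread between animals is not seen. The file gives the exons of each transcript on the mm9 (NCBIM37) genome and no value for any pool, and names no pool or group, so neither the read depth nor the level of an AMPA subunit in cocaine or saline pools could be read from it, and the NAc label was not checked against marker genes. In the comparison that Cufflinks makes with the annotation, all 87740 transcripts of the file were marked as equal to an annotated one, the 19 of these genes included. What follows therefore describes annotated transcripts in the study's deposited models, and no difference between groups.

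AMPA receptors are the glutamate-gated ion channels that carry most fast excitatory transmission in the brain, and in the NAc they sit on medium spiny neurons at the synapses that bring input from cortex, hippocampus, amygdala and thalamus. Each receptor is an assembly of GluA1 to GluA4 subunits, which the genes Gria1 to Gria4 encode in this order. The subunit is varied at the level of the messenger RNA. The choice between a flip and a flop exon, in the part that encodes the ligand-binding domain, affects how fast the receptor desensitizes. The choice of the intracellular C-terminal tail decides which scaffold and trafficking proteins bind. The editing of adenosines by the ADAR enzymes changes single residues, and at the Q/R site of GluA2 it makes the channel poorly permeable to calcium.

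Each of the 8 flip and flop exons was 115 bases long. They were found as the pair of exons in each gene that do not overlap and are used, each without the other, between the same donor and the same acceptor, and were named by the end of the residues that they encode, so that neither length nor spacing was used. They are printed here because they are the alternative parts of the 4 subunits, each from the mm9 genome on the strand of its gene, 5′ to 3′, with capitals at the bases where flip and flop of the same gene differ.
Gria1 flip, chr11:57124110-57124224, plus strand: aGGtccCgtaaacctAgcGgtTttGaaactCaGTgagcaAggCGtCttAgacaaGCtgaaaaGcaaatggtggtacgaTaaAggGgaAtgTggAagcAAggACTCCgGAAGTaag
Gria1 flop, chr11:57123271-57123385, plus strand: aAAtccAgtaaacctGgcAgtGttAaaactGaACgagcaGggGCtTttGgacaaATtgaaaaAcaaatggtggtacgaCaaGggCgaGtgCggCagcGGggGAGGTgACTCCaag
Gria2 flip, chr3:80494326-80494440, minus strand: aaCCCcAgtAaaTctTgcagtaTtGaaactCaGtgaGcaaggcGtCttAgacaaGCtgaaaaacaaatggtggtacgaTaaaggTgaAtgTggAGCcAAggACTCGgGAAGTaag
Gria2 flop, chr3:80495242-80495356, minus strand: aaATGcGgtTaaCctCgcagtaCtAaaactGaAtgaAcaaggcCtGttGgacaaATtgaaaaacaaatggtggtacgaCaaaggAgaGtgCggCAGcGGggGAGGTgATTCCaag
Gria3 flip, chrX:39022678-39022792, plus strand: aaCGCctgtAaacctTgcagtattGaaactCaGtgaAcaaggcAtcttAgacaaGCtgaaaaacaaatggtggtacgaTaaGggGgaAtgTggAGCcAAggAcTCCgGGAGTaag
Gria3 flop, chrX:39007987-39008101, plus strand: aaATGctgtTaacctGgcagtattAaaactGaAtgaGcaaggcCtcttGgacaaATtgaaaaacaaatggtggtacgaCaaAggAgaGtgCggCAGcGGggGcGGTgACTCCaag
Gria4 flip, chr9:4427030-4427144, minus strand: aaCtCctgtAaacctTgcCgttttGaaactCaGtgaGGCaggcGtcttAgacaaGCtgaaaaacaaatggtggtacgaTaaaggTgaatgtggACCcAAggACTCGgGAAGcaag
Gria4 flop, chr9:4432773-4432887, minus strand: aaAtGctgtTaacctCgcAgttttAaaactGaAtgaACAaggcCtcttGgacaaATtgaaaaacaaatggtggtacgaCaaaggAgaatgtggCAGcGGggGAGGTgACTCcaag

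Flip and flop of the same gene were less alike than flip exons of different genes were to each other. Gria1 flip and flop matched at 79 of 115 bases (68.7%), Gria2 also at 79 (68.7%), Gria3 at 83 (72.2%) and Gria4 at 84 (73.0%). Between genes, the 6 pairs of flip exons matched at 87.8 to 92.2% of bases (median 88.7%), and the 6 pairs of flop exons at 87.8 to 94.8% (median 92.2%). The 12 pairs of a flip and a flop of different genes matched at 67.8 to 73.0% (median 70.4%), the same range as the 4 pairs within a gene apart from its lower end. The identities within the flip set and within the flop set did not overlap those across the sets. The last 6 codons had named the exons and so fix part of this difference. Over the 97 bases before them, a comparison added after seeing the data, flip exons matched each other at 86.6 to 92.8% and flop exons at 85.6 to 94.8%, while flip and flop matched at 75.3 to 79.4% within a gene and at 73.2 to 80.4% between genes. These are descriptions of the reference genome, with no test.

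**Figure D1:**
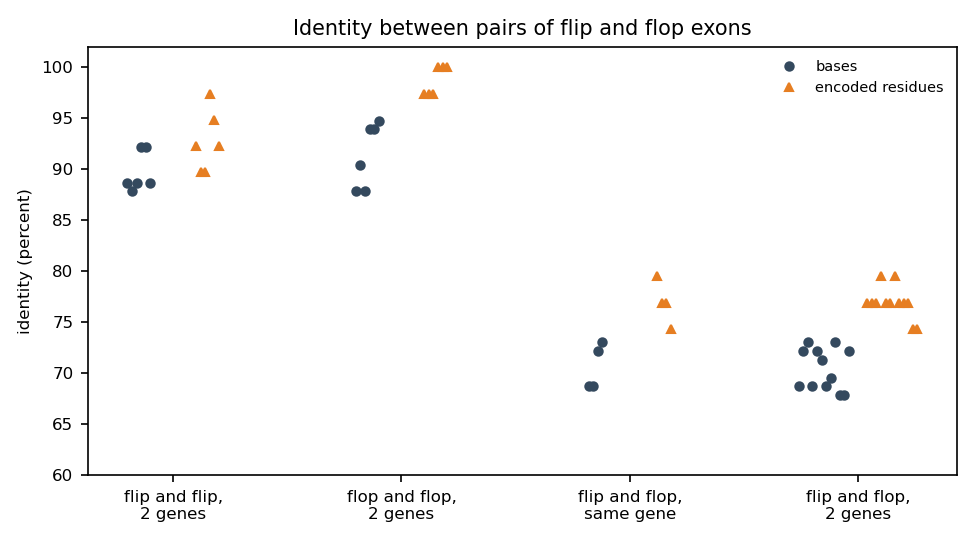
Identity in percent for each of the 28 pairs among the 8 exons, by kind of pair, with dots for bases and triangles for encoded residues. The flip-flip and flop-flop pairs lie at 87.8% of bases or above, and every flip-flop pair lies at 73.0% or below.

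The encoded residues differed less than the bases, though by little in Gria4. Flip and flop residues were 79.5, 76.9, 76.9 and 74.4% identical in Gria1 to Gria4, against 68.7, 68.7, 72.2 and 73.0% of bases. In the frame of the transcript, each exon reads through 39 codons, the first of which takes 2 of its bases from the exon before. Flip and flop differed at 8 of the 39 residues in Gria1, 9 in Gria2, 9 in Gria3 and 10 in Gria4. A further 18, 15, 15 and 13 codons differed in bases and encoded the same residue. Counted from the first of the 39, 7 positions (2, 12, 16, 34, 35, 36 and 37) differed in all 4 genes, and 11 positions differed in at least 1 gene. The exons were named by their last 6 residues, so the differences at positions 34, 35, 36 and 37 were fixed by the naming. They make up 4 of the different residues in each gene. Between genes, flop exons encoded nearly the same residues, with 0 or 1 different in the 6 pairs, while flip exons differed at 1 to 4 residues. The last 6 residues were equal within each kind by the naming, and residues were not compared without them.

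The differences lay on both sides of a shared stretch. In Gria2, Gria3 and Gria4, bases 57 to 78 of the exon were identical between flip and flop, a run of 22 bases. Gria1 had a difference at base 63 and a longest identical run of 15 bases. The 56 bases before this stretch held 17, 17, 13 and 15 differences in Gria1 to Gria4, and the 37 bases after it held 18, 19, 19 and 16. The last difference lay at base 112 in Gria1, Gria2 and Gria3 and at base 111 in Gria4.

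**Figure D2:**
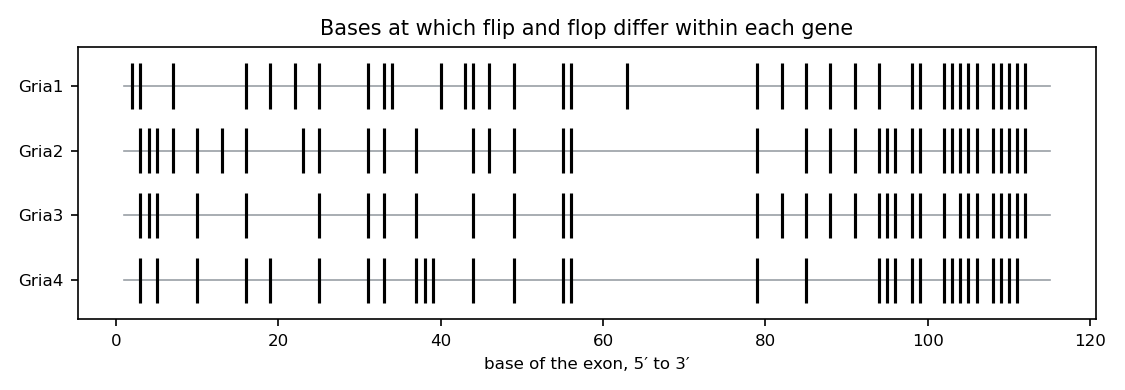
Bases at which flip and flop of a gene differ, along the 115 bases of the exon from 5′ to 3′, with 1 row for each gene and 1 bar for each different base. Gria1 and Gria2 have 36 bars, Gria3 32 and Gria4 31, and bases 57 to 78 are free of bars apart from base 63 of Gria1.

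The flop exon came first along the gene and the flip exon after it in all 4 genes, at very different spacing. The sequence between them was 724 bases in Gria1, 801 in Gria2, 14576 in Gria3 and 5628 in Gria4. The intron before flop was 20273 bases in Gria1, 850 in Gria2, 556 in Gria3 and 23117 in Gria4. The intron after flip was 6943, 1052, 2603 and 2575 bases in the same order. Gria2 thus held the most compact arrangement, with all 3 distances between 801 and 1052 bases, while Gria3 had the shortest intron before flop and the longest distance to flip. The exon itself made up 2.03, 1.68, 2.21 and 2.11% of the flip transcript of Gria1 to Gria4, so that nearly all of the sequence of the flip and flop transcripts of Gria1, of the plain forms of Gria2 and of the long forms of Gria4 was common to both.

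**Figure D3:**
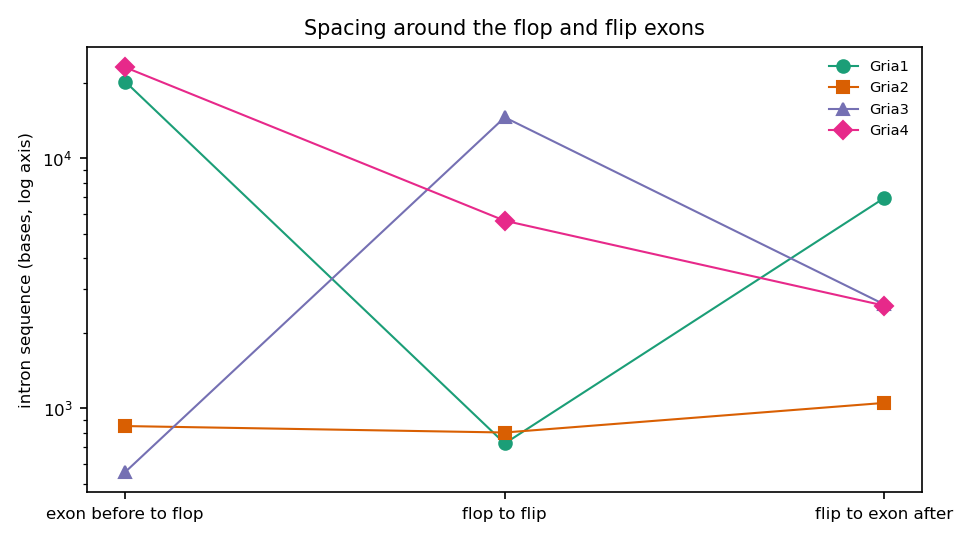
Intron sequence in bases, on a log axis, between the exon before and flop, between flop and flip, and between flip and the exon after, with 1 line for each gene. Gria2 stays between 801 and 1052 bases at all 3 places, and Gria3 has 14576 bases between flop and flip against 556 before flop.

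Over the whole file, pairs of mutually exclusive exons were uncommon, and none of equal length had the length of flip and flop outside these genes. A pair was counted where 2 internal exons that do not overlap share the donor before and the acceptor after and never lie in the same transcript. Of 12188 loci with at least 2 transcripts of at least 3 exons, 413 (3.39%) held such a pair and 76 (0.624%) a pair of equal length. Gria1, Gria2 and Gria4 met the rule and were the 3 loci with an equal-length pair of 115 bases. Gria3 did not meet it, because its transcript ENSMUST00000139965 holds both exons. Where such transcripts were allowed, an alternative chosen after seeing the data, the loci with an equal-length pair numbered 93 and those with a pair of 115 bases were Gria1 to Gria4. Where no transcript could hold exons that overlap both, also chosen afterwards, Gria1 and Gria4 remained, since a Gria2 transcript holds flop with a shortened flip.

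Of the 19 transcripts, 4 held the exact flip exon alone, 6 the exact flop exon alone, 1 both and 8 neither. Each gene had 1 transcript with flip alone: ENSMUST00000036315 of Gria1, ENSMUST00000107745 of Gria2, ENSMUST00000076349 of Gria3 and ENSMUST00000063508 of Gria4. The exact flop without the exact flip was held by ENSMUST00000094179 of Gria1, ENSMUST00000115103 of Gria3, 2 transcripts of Gria2 and 2 of Gria4. Of those of Gria2, ENSMUST00000107746 also held a flip exon of 114 bases, shorter than the exact one, so that only ENSMUST00000075316 held flop with no flip sequence. The 8 with neither were 1 of Gria1, 6 of Gria3 and 1 of Gria4, and 1 of those of Gria3 reads through flop as part of a longer exon.

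**Figure D4:**
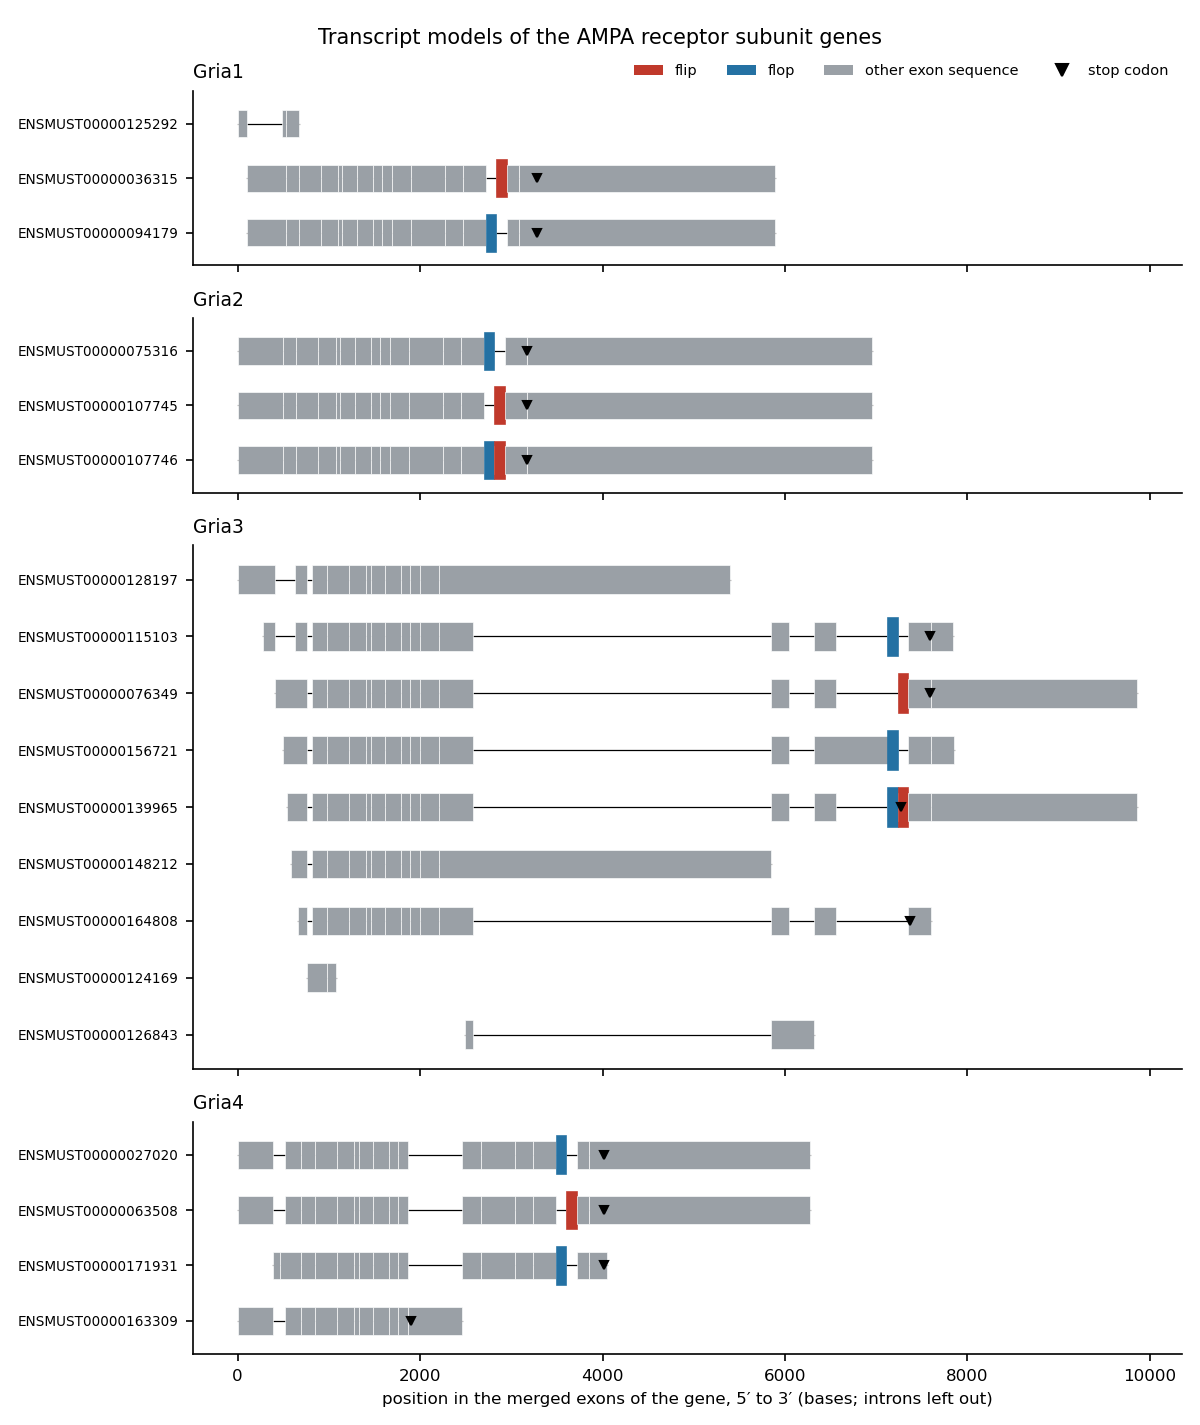
The 19 transcripts of the 4 genes, each as a row of exons laid along the merged exons of its gene from 5′ to 3′ in bases, with introns left out. Flip is red, flop blue (drawn also where an exon overlaps it without matching its ends), and the triangle is the stop codon in the annotated frame. Each gene has 1 flip-only transcript, and Gria2 and Gria3 each have 1 row with both colours.

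Gria1 encodes GluA1, the subunit whose delivery to synapses is regulated by activity. It spanned 318857 bp at chr11:56824889-57143745 on the plus strand, longer than 97.8% of the 22206 loci with a protein identifier (median 15168.5 bp), and exons made up 1.85% of the span. The flip transcript and the flop transcript both had 16 exons, 5664 bases and an open frame of 907 residues, and they differed in the alternative exon only. The third transcript, ENSMUST00000125292, had 3 exons and 287 bases, no protein identifier and no stop codon in its frame. The longest intron measured 170501 bp.

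Gria2 encodes GluA2, which sets the calcium permeability of the receptor. It was the shortest of the 4, with 117856 bp at chr3:80488858-80606713 on the minus strand, and still longer than 91.4% of those loci. Its 3 transcripts all had a protein identifier and began at the same base. ENSMUST00000107745 with flip and ENSMUST00000075316 with flop each had 6841 bases and encoded 883 residues. The third, ENSMUST00000107746, joined flop to a flip exon of 114 bases, 1 base short at its 5′ end. These 114 extra bases are 38 whole codons, so the frame was kept and 921 residues were encoded, with the same stop codon as the other two.

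The intron that ENSMUST00000107746 uses between flop and the shortened flip ended in GA in place of AG. The 30 bases around this acceptor at chr3:80494429-80494458, minus strand, are printed to show the shift by 1 base, with capitals at the last 2 intron bases of each form.
Flip alone: gttattttccacgtgaAGaaccccagtaaa
Flip after flop: gttattttccacgtgaaGAaccccagtaaa
Of the 76 introns of the 4 genes, 74 had GT-AG ends, 1 was this GT-GA intron and 1 had CT-CT ends. In the whole file, 96.8% of 238517 introns had GT-AG ends, 56 (0.0235%) GT-GA ends and 17 (0.00713%) CT-CT ends. The CT-CT intron, in ENSMUST00000171931 of Gria4, measured 32 bases, and 0.135% of all introns were that short or shorter.

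Gria3 encodes GluA3, which commonly pairs with GluA2, and is the X-linked member. It spanned 277748 bp at chrX:38754031-39031778 on the plus strand and had the most transcripts, 9, of which 5 had a protein identifier. Among loci with a protein identifier, 7.64% had 9 transcripts or more. ENSMUST00000076349 with flip and ENSMUST00000115103 with flop both encoded 888 residues, and their models differed also at both ends, in first exons and in length (5192 and 3081 bases).

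The other transcripts of Gria3 ended early or kept intron sequence. ENSMUST00000139965 held flop and flip together, 115 bases more than a transcript with 1 of them. Because 115 leaves a remainder of 1 over whole codons, the frame shifted and a stop codon arose at 39022711 within flip, after 818 residues and 327 bases before the last exon junction. GENCODE M1, an annotation of the same build, classes it as a target of nonsense-mediated decay, the pathway that degrades messages with an early stop. ENSMUST00000164808 held neither exon and reached a stop at 39025412 after 774 residues. Its model begins at the start codon and ends at 39025641, the last base of the stop codon that the long forms use. ENSMUST00000156721 held a 919-base exon, which is the 248-base exon before flop, the 556-base intron and flop itself. GENCODE M1 classes it as a retained intron, and likewise ENSMUST00000128197, ENSMUST00000148212 and ENSMUST00000126843, of which the first 2 end in exons of 3186 and 3641 bases. ENSMUST00000124169 had 2 exons, 322 bases and no stop codon in its frame. In the deposited file all 9 carry the biotype of a protein-coding gene.

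Gria4 encodes GluA4, the subunit typical of early development and of some interneurons. It was the longest of the 4, with 378336 bp at chr9:4417899-4796234 on the minus strand, longer than 98.4% of loci with a protein identifier, and exons made up 1.66% of it. ENSMUST00000063508 with flip and ENSMUST00000027020 with flop each had 17 exons, 5441 bases and 902 residues. ENSMUST00000171931 also held flop and encoded 902 residues. Its model ended 32 bases after the stop codon, and it shared its protein identifier with ENSMUST00000027020, so that the 4 transcripts had 3 protein identifiers. ENSMUST00000163309 stopped after 433 residues in an 11th and last exon of 590 bases, before the exons that encode the channel pore, flip and flop.

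Many exons up to flip and flop had the same length across the 4 genes. Counting back from flip, the 13 internal exons that end with flip were compared, and 8 had 1 length in all 4 genes: 240, 54, 168, 105, 207, 199, 248 and 115 bases. The other 5 had 138 to 159, 185 to 197, 159 to 162, 108 to 111 and 371 to 377 bases, of which the first is the farthest from flip. After flip the genes parted. The next exon had 135 bases in Gria1 and Gria4, against 249 in Gria2 and 248 in Gria3.

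The C-terminal parts after the flip exon fell into the same 2 pairs of genes. GluA1 had 112 residues and GluA4 99 residues after the flip exon, against 81 in GluA2 and 81 in GluA3. This count runs from the flip exon to the stop codon and is not the length of the intracellular tail alone. In Gria1 and Gria4 the stop codon lay in the last exon, 2597 and 2253 bases before the end of the transcript. In Gria2 and Gria3 it lay in the exon before the last, 3 and 2 bases from its end, followed by a last exon outside the frame. All full-length transcripts of a gene used the same stop codon: 57141146 in Gria1, 80493030 in Gria2, 39025639 in Gria3 and 4420154 in Gria4 (first base of the codon along the gene). With the early stops of Gria3 and Gria4, the 4 genes had 1, 1, 3 and 2 stop codons in the annotated frame, over 13 transcripts. No transcript of the file therefore gave a full-length subunit an alternative tail. The last 30 coding bases are printed because this end of GluA1, GluA2 and GluA3 binds PDZ proteins. GluA1 binds SAP97, encoded by Dlg1, and GluA2 and GluA3 bind GRIP1 and PICK1. The end of Gria4 is printed for comparison. Capitals mark the stop codon.
Gria1, chr11:57141119-57141148, plus strand: gggatgcccttgggagccacaggattgTAA
Gria2, chr3:80493028-80493057, minus strand: gtatatggcatcgagagtgttaaaattTAG
Gria3, chrX:39025612-39025641, plus strand: gtgtatggaacagaaagtgttaagatcTAG
Gria4, chr9:4420152-4420181, minus strand: ttggctgtcattgcatcggacctaccaTAA

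The editing sites were read as the genome encodes them, since the file holds no reads. At the Q/R site in the pore, the codon was CAG in Gria1, Gria2 and Gria3 and CAA in Gria4, all of which encode glutamine. The residue is number 600, 607, 612 and 608 in GluA1 to GluA4, counted from the start codon. The 30 bases around it, with the codon in capitals, differed at 2 to 4 positions between any 2 genes. They show that the genome gives Gria2 the same codon as Gria1 and Gria3, so that the arginine typical of GluA2 protein is not read from the gene.
Gria1, chr11:57056584-57056613, plus strand: ggggccttcatgCAGcaaggatgtgacatt
Gria2, chr3:80510818-80510847, minus strand: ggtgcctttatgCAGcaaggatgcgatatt
Gria3, chrX:38963430-38963459, plus strand: ggtgcttttatgCAGcaaggatgtgatatt
Gria4, chr9:4464122-4464151, minus strand: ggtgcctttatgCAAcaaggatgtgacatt

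The R/G site lies at the junction to flip and flop, and editing there is known in GluA2, GluA3 and GluA4 proteins. Its codon was AGA in all 4 genes, at residue 757, 764, 769 and 765 of GluA1 to GluA4, with 2 bases at the end of the exon before and the last base in flip or flop. Editing there is known to depend on pairing of the exon with the intron, and the last 20 exon bases and first 10 intron bases are printed for that reason, with the first 2 codon bases in capitals.
Gria1, chr11:57102978-57103007, plus strand: cccaaggggtccgccctgAGgtaagtaccc
Gria2, chr3:80496197-80496226, minus strand: cctaaaggatcctcattaAGgtgggtggaa
Gria3, chrX:39007411-39007440, plus strand: cctaaaggctcagcattaAGgtgggtggaa
Gria4, chr9:4455995-4456024, minus strand: cccaagggttcctcattaAGgtgggtggaa
The first 10 intron bases were the same in Gria2, Gria3 and Gria4 (0 differences), and Gria1 differed from each of them at 6 of the 10. Over the 30 bases, Gria1 differed from Gria2, Gria3 and Gria4 at 11 to 13 positions, and these differed among themselves at 3 to 5.

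The 4 genes had 12 start-site groups, the file's sets of transcripts that share a start. Gria2 had 1 group, Gria1 and Gria4 2 each, and Gria3 7, a number reached by 4.16% of loci with a protein identifier (median 1). Gria3 had 5 where starts within 100 bp were merged, and also 5 where a protein identifier was required. In Gria1, the flip and flop transcripts began at the same base, 304 bases after the start of the 3-exon model. In Gria4, ENSMUST00000171931 began 715 bases after the other 3 transcripts. The groups of Gria3 began 0, 274, 450, 582, 711, 1886 and 209343 bases from its first start, and the 9 transcripts had 9 different first bases. The groups at 0 and 209343 bases each held only 1 model, classed as a retained intron. The model at 209343 bases begins within an exon of the long forms. The flip transcript of Gria3 began at 450 bases and the flop transcript at 274, in another group. ENSMUST00000156721, which reads through flop, was in the group of the flip transcript. In Gria1, Gria2 and Gria4, a flip and a flop transcript shared a start group.

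**Figure D5:**
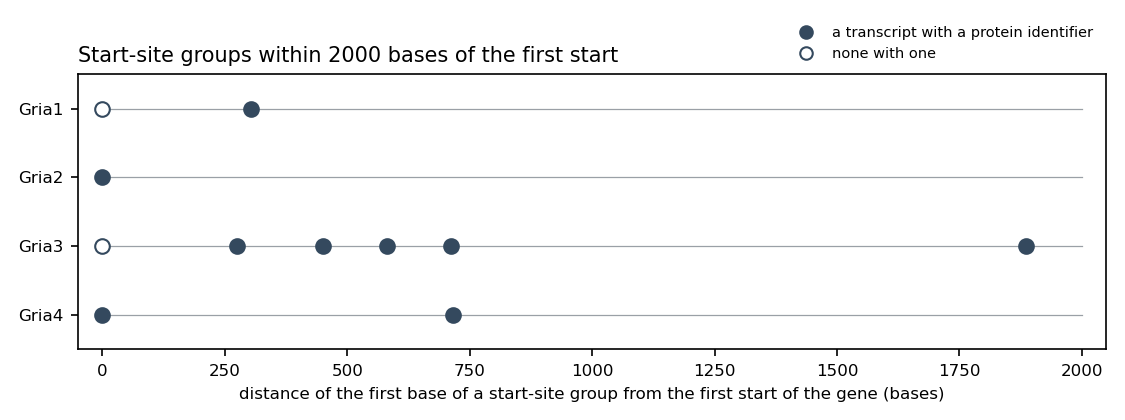
Distance in bases of each start-site group from the first start of its gene, up to 2000 bases, with filled circles where a transcript of the group has a protein identifier. Gria3 has 6 groups within 1886 bases, and its group at 209343 bases lies beyond the axis.

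The sequence at the starts varied within Gria3 as well as between the genes. In windows of 300 bases (250 before and 50 from the start onward), the GC content was 66.0% at Gria2, 54.3 and 57.3% at Gria1, 59.7 and 61.0% at Gria4 and 42.0 to 56.7% at the 7 starts of Gria3, against a median of 55.7% over 32157 start groups with a protein identifier. The ratio of observed to expected CpG, which is high in CpG islands, was 0.837 at Gria2, 0.199 and 0.108 at Gria1, 0.662 and 0.584 at Gria4 and 0.136 to 0.894 at the starts of Gria3, against a median of 0.510. Gria3 alone thus covered nearly the whole range. The windows of its starts from 0 to 711 bases overlap their neighbours and are not separate stretches of sequence. Its 42.0% GC was at the start 209343 bases along, which lies within an exon of the long forms. The letters TATAAA, searched on the strand of the gene 20 to 40 bases before the start, were found at none of the 12 starts and at 1.55% of all such groups.

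The splicing factor A2BP1 (RBFOX1), which is known to bind UGCAUG in RNA, was followed up in the study as a candidate, and its motif was searched in the introns next to flip and flop. The study gives the motif as its reverse complement. TGCATG on the strand of the gene, in 150 bases of intron on each side, was found beside 0 of the 8 exons, against 11.5% of 124267 internal exons of the file. That reverse complement, CATGCA, was added after seeing the data and was also found beside 0 of the 8, against 8.73%. In 300 bases TGCATG lay after Gria2 flip and before Gria3 flop, 2 of 8 exons, against 21.9%. The core GCATG, which every TGCATG contains, lay within 150 bases after Gria1 flop and after Gria2 flip, again 2 of 8, against 26.9%. A match is a run of letters and not a binding site, and the absence of one in these windows says nothing of the factor.

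Genes of related function were counted in the same way. The other ionotropic glutamate receptor genes (kainate, NMDA and delta subunits) were all found, 14 of 14, with 1 to 14 transcripts (median 3). A mutually exclusive pair needs at least 2 transcripts of at least 3 exons, which 11 of the 14 had. None of the 11 held a pair, against 3.39% of such loci in the file, and 0 of so few genes is near that share. Grin1, the obligatory NMDA subunit, had 14 transcripts, and Grik5 and Grid1 had 1 each. Another list held 30 genes: AMPA receptor auxiliary subunits, scaffolds and trafficking proteins, the editing enzymes and the RBFOX splicing factors. They had 1 to 16 transcripts (median 3.5), with 16 each at Grip1 and Dlg1, and 8 genes with 1. Of the 30, 22 could hold a pair and 5 did (22.7%, against 3.39% of such loci in the file). The 5 were Syndig1 (Tmem90b in the file), Dlg1, Dlg3, Rbfox1 and Rbfox2, with 6 to 16 transcripts each. Other genes of the list with as many, such as Grip1 with 16, held none. The median was 2 transcripts per locus with a protein identifier, which is another set of loci than the one behind the 3.39%. The share was not adjusted for the number of transcripts. None of either list held a pair of equal length, and with 0.624% of loci holding one in the file, 0 of so few genes is near the background. These counts describe the annotation and were not tested.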

How the data were processed

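The authors aligned RNA-seq reads to Ensembl NCBIM37.62 (mm9) with TopHat and used the Cufflinks package. Besides these, CASAVA and Cuffdiff are named in the notes of the submitters, without versions. The deposited file names none of the 12 samples, so which pools it was used for is not given by it. It holds the first and last base of each exon and 0 columns of values per sample, so no groups were compared and no test was made. Transcripts were taken by gene name, and flip and flop were named by the encoded end of the exon. Sequences were read from NCBIM37, and start codons from GENCODE M1 of that build. Start windows took 250 bases before and 50 after. Python 3.11.15, numpy 2.4.6, samtools 1.23.1 and matplotlib 3.10.9 were used, and the functions passed 25 of 25 tests on simulated models. Members and lists were chosen with earlier results of these data known. Of the lists, genes with an exclusive pair and with the most or fewest transcripts were to be named. The 8 genes with 1 transcript in the list of 30 are given by number.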

Additional observations from a re-analysis of the deposited data

How the results depend on the processing

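Taking the members by locus changed none of their counts. Of 56 alternatives over 25 results, 44 stayed within 1.5 times the value given or, for identity, within its 95% counting interval. That interval treats the bases of a fixed reference sequence as independent draws, so it is a yardstick and measures no sampling spread. With protein identifiers required, Gria1 had 1 start group and Gria3 5 transcripts. Equal lengths left 76 loci with an exclusive pair, and 93 with joint transcripts allowed (added after seeing the data). The longest open frame gave Gria1 2 stops and Gria3 7, and counting last exons gave 2 and 9. By residues, flip and flop were 79.5% identical in Gria1 and 76.9% in Gria2. The motif search gave 2 exons with 300 bases of flank and 2 with GCATG. The counts rest on a reference annotation and not on reads of these pools, and depth cannot be read from the file. No paired analysis was possible because the file holds no value for any pool.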
